A study of Mus musculus with 2 samples.

Results

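The 7 genes described here, Dlg4, Gabbr1, Flna, Bak1, Src, Tpm1 and Actn1, are known from earlier work to hold exons that the RNA-binding protein Ptbp1 represses. They were taken as a named list from that work, but with earlier results of these data known. All 7 were found among the 25778 genes of the count table. Their RNA was measured in single cells of mouse retina at 30 days of age (P30), with 1 library of the Chx10-Cre genotype (Ptbp1-Ctrl, the control) and 1 of the Chx10-Cre;Ptbp1lox/lox genotype (Ptbp1-KO). Both groups carry the Chx10-Cre transgene, which is active in retinal progenitors, and in Ptbp1-KO the floxed promoter and first exon of Ptbp1 are lost from cells that descend from them. Each library came from 1 mouse, so no test between genotypes could be made, and the intervals given below cover counting error only.

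The methods describe the mice as female, yet both libraries carried RNA of the Y-linked gene Uty (6164 UMIs in the control and 7085 in Ptbp1-KO, a UMI being a unique molecular identifier that marks 1 captured RNA molecule) and almost none of Xist (5 and 6 UMIs). There were 16421 Ptbp1-Ctrl cells (32758836 UMIs in all) and 14522 Ptbp1-KO cells (35328593 UMIs), and 63 cell barcode sequences occurred in both libraries. Median depth was higher in Ptbp1-KO, at 1740 against 1442 UMIs per cell. Levels below are in CPM: all cells of 1 deposited cell type in 1 library were summed, and a gene's count was scaled to a total of 1000000 UMIs. The types compared were Müller glia (MG), amacrine cells (AC), bipolar cells (BC), cones and rods. Every marker of a type's own fixed list had UMIs there in both libraries, but most markers had UMIs in other types as well. The summed CPM of each list was highest in its own type among those compared, in both libraries. Retinal ganglion cells and horizontal cells, whose summed depth was low, are given as values at the end. RNA released from other cells was also counted in each type. An estimate of it, made from a marker gene of a different cell type, is given beside some of the results it touches.

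Ptbp1 binds pyrimidine-rich stretches beside an exon and keeps that exon out of the mature RNA in glia, progenitors and other non-neuronal cells. When neurons form, Ptbp1 gives way to its paralog Ptbp2, and the repressed exons appear. For some targets the outcome is a change of RNA amount, because one of the splice forms carries an early stop codon and is degraded by nonsense-mediated decay. In Dlg4 and Gabbr1 it is skipping of the exon that leads to decay, whereas in Flna and Bak1 it is inclusion. In Src, Tpm1 and Actn1 both forms are stable and encode different proteins, so that a switch need not change the amount of RNA.

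The exons themselves are shown because they mark what the present counts can and cannot see. Sequences are those of the GENCODE M21 transcripts (GRCm38, the assembly also called mm10), read 5′ to 3′ on the strand of the gene, with the alternative exon in capitals and 15 bases of each neighbouring exon in lower case. The Dlg4 exon (chr11:70043658-70043767, plus strand) is exon 18 of 20 in Dlg4-215, and the single annotated transcript that skips it, Dlg4-205, is classed as a decay transcript. The Gabbr1 exon (chr17:37067214-37067364, plus strand) is exon 15 of 23 in Gabbr1-201 and is skipped in the decay transcript Gabbr1-205. The Bak1 exon (chr17:27021663-27021682, minus strand) has 20 bases and occurs in 1 of the 4 annotated transcripts, the decay transcript Bak1-201. The Src exon (chr2:157458843-157458860, plus strand) has 18 bases, a multiple of 3, and is present in Src-202 and Src-203. The 2 Actn1 exons share both neighbours: one of 81 bases (chr12:80170686-80170766, minus strand), known as the non-muscle exon, lies in Actn1-201, and one of 66 bases (chr12:80170183-80170248, minus strand), the smooth muscle exon, in Actn1-202.
Dlg4, 110 bases: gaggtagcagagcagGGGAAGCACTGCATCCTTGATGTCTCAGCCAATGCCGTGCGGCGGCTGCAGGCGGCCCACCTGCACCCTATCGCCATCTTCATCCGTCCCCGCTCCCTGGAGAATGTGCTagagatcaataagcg
Gabbr1, 151 bases: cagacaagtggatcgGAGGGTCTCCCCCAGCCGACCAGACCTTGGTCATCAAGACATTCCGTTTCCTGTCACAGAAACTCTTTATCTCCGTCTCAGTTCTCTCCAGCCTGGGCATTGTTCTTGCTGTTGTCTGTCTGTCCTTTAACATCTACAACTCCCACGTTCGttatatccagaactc
Bak1, 20 bases: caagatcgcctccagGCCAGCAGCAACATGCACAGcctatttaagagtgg
Src, 18 bases: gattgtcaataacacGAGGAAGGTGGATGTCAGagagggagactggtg
Actn1, 81 bases: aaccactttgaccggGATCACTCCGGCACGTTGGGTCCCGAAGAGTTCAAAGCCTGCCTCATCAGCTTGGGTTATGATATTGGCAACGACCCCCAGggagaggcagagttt
Actn1, 66 bases: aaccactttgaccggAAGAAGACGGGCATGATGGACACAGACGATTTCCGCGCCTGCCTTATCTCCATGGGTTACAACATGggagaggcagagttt
Tpm1 holds a similar pair of 126-base exons on the minus strand of chromosome 9, at chr9:67048124-67048249 and chr9:67047786-67047911, of which 2 annotated transcripts hold only the first and 10 only the second. The Flna exon linked to decay could not be identified in this annotation by the same rule and is named only.

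The kit used reads RNA from its 3′ end, and these exons lie far from it. Counted along the spliced transcript, 3026 bases separated the Dlg4 exon from the end of Dlg4-215, 3068 bases the Gabbr1 exon from the end of Gabbr1-201, and 3138 bases the Src exon from the end of Src-202. The shortest distance, 318 bases, belonged to the 66-base Actn1 exon in a transcript model whose last exon is shorter than that of Actn1-201. The counts give 1 number per gene and do not tell these splice forms apart, so every value below is an amount of RNA and not a share of an exon.

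**Figure D1:**
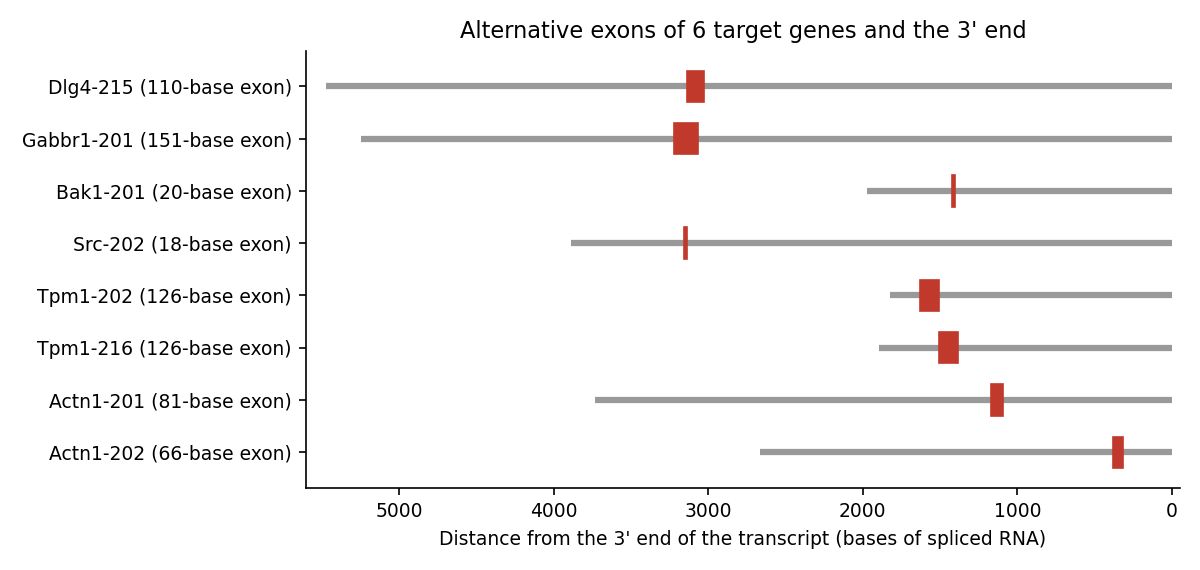
Each grey line is 1 annotated transcript drawn by its distance from the 3′ end in bases of spliced RNA, and the red box is the alternative exon. The boxes of Dlg4, Gabbr1 and Src lie 3026 to 3138 bases from the end, that of Bak1 lies 1405 bases from it, and the nearest, the 66-base exon of Actn1-202, lies 318 bases from it.

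Ptbp1, the targeted gene, was measured first as a check of the labels. In MG it stood at 49.8 CPM (294 UMIs) in the control and 1.18 CPM (6 UMIs) in Ptbp1-KO, and over the whole libraries 825 and 14 UMIs were counted. Neuronal types of the control held Ptbp1 RNA too, at 19.6 CPM (255 UMIs) in rods and 20.8 CPM (204 UMIs) in BC. Control AC had 20.96 CPM (41 UMIs) and control cones 13.8 CPM (24 UMIs). Released RNA would give 1.57 CPM in control rods, 7.27 in BC, 8.2 in AC and 12.6 in cones. Only the cone estimate lay within the Poisson interval of the measured level. The library labelled Ptbp1-KO thus held little Ptbp1 RNA in any of the 5 types, with 1 to 6 UMIs in each.

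Across the 7 targets and 5 cell types, most gene levels were similar in the 2 libraries. No target with at least 50 UMIs in a type was lower there in Ptbp1-KO past the fold used here. Gabbr1, the GABA-B receptor subunit, was higher in MG of Ptbp1-KO by 0.59 on the log2 scale, and this was the one ratio of the list in MG past that fold. The fold used was a log2 ratio of 0.32 in either direction, applied to genes with at least 50 UMIs over both libraries in a type. Of the 35 ratios, 31 had that many UMIs, 7 of these were higher in Ptbp1-KO past that fold, 0 were lower, and for 4 of the 7 the 95% interval (exact conditional binomial) also lay above 0. For 26 of the 31 the interval held 0.

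These counts were set beside those of all genes with at least 50 UMIs in the same type. In rods 3 of 7 targets were higher (Flna, Src and Tpm1), where 19.9% of 12742 genes were higher and 4.70% lower. In cones 1 of the 4 targets with enough UMIs was higher (Actn1), with 14.4% of 7968 genes higher and 12.7% lower. In BC 1 of 7 was higher (Flna), with 10.7% of 13070 genes higher and 7.24% lower. In AC 1 of 6 was higher (Src), with 13.0% of 10796 genes higher and 10.9% lower. In MG, the type with most Ptbp1 in Ptbp1-Ctrl, 1 of 7 was higher (Gabbr1), with 13.1% of 12080 genes higher and 11.2% lower. The counts are too small to set any of the 5 types apart from its background. Median log2 ratios of the targets were 0.11 in rods, 0.07 in cones, 0.07 in BC, 0.04 in AC and 0.12 in MG, against medians of all tested genes of 0.07, −0.01, 0.01, −0.00083 and −0.0023. Under TMM scaling all rod ratios moved by −0.09, which left 1 of the 7 targets, Src, past the fold in rods.

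**Figure D2:**
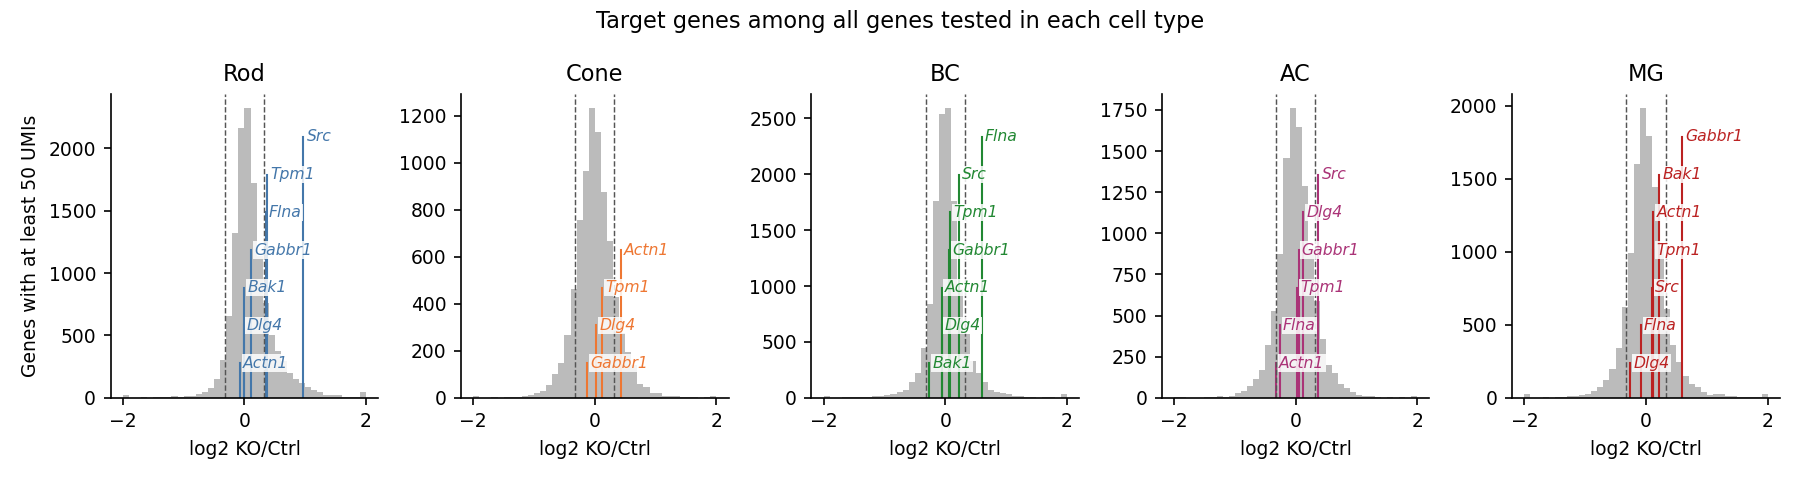
Grey bars count all genes with at least 50 UMIs by log2 ratio of Ptbp1-KO over Ptbp1-Ctrl in each cell type (values beyond 2 are drawn in the end bars), coloured lines mark the target genes, and dashed lines mark log2 ratios of 0.32 either way. Most targets fall under the main peak, and Gabbr1 in MG (0.59), Flna in BC (0.60) and Src in rods (0.97) lie to its right.

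Gabbr1 (chr17:37045966-37075067, plus strand) encodes subunit 1 of the GABA-B receptor, the metabotropic receptor for the inhibitory transmitter GABA, and the exon shown above is needed for its full-length protein. In MG, 321 UMIs in Ptbp1-Ctrl gave 54.4 CPM (95% Poisson interval 48.6 to 60.6), and 416 UMIs in Ptbp1-KO gave 81.8 CPM (74.1 to 90.05). The 2 intervals did not overlap, and the log2 ratio was 0.59 (0.38 to 0.80). In the 4 neuronal types the intervals held 0, with log2 ratios of 0.11 (−0.05 to 0.27) in rods, −0.13 (−0.56 to 0.30) in cones, 0.07 (−0.06 to 0.20) in BC and 0.05 (−0.16 to 0.26) in AC. The cone value ran from −0.77 after subtraction of released RNA to 0.07 with thinned cells. The interval in MG lay above each of these 4 intervals, a difference between types that was not tested, since 1 library per genotype gives no replicates.

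Within MG the higher Gabbr1 level was present in each of the 3 deposited clusters. The largest, cluster 4 with 2380 cells, went from 53.1 to 80.04 CPM between Ptbp1-Ctrl and Ptbp1-KO (log2 0.59, 0.36 to 0.83). Cluster 16 gave 0.56 (−0.34 to 1.46) on 23 UMIs in each library, and cluster 22 gave 0.66 (−0.07 to 1.39) on 32 and 36 UMIs. The 2 smaller clusters thus had ratios of the same size whose intervals held 0. Under the 7 other ways of forming the ratio the MG value ran from 0.56 to 0.82.

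The share of MG with a Gabbr1 UMI differed in the same direction. With each cell thinned to 1000 UMIs it was 5.53% (exact Clopper-Pearson interval 4.48 to 6.74) in Ptbp1-Ctrl and 8.53% (6.99 to 10.3) in Ptbp1-KO, against 16.5% and 29.1% without thinning at median depths of 3333 and 4178 UMIs. Rods, the type with the lowest Gabbr1 level, had thinned shares of 4.51% and 4.63% (5.56% and 7.23% without thinning, at median depths of 1088 and 1288 UMIs). Gabbr1 RNA released from other cells would give 22.6 CPM in control MG and 21.9 CPM in MG of Ptbp1-KO, below both measured levels and alike in the 2 libraries. When 9 defining genes of vessel, mural and microglial cells were used to leave out 59 and 68 MG, an alternative chosen after the data had been seen, the ratio was 0.56 (0.34 to 0.78). In MG the summed endothelial markers (4 of 4 with UMIs) stood at 879 and 815 CPM, AC markers (4 of 4) at 551 and 632 CPM and BC markers (6 of 6) at 601 and 690 CPM, the last 2 lists being higher in Ptbp1-KO. Their part in the result was not tested. Mural markers (5 of 5) stood at 70.1 and 79.2 CPM, and microglial markers at 5.42 and 8.46 CPM with C1qb at 0 in both libraries. Ganglion cell markers (5 of 5) stood at 40.8 and 57.6 CPM and astrocyte markers (3 of 3) at 35.0 and 46.8 CPM. Both lists were higher in Ptbp1-KO, and their part was not tested either.

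By level, Gabbr1 was highest in AC (mean of both libraries 149 CPM), then BC (95.2), MG (68.1), cones (58.7) and rods (47.2). AC stood apart from BC, and BC from MG, in both libraries. MG, cones and rods could not be ordered beyond counting error in both libraries. In Ptbp1-KO the MG level was still below that of BC (97.4 CPM, 91.4 to 103.6). Gabbr2, the partner subunit of the receptor, was at 6.26 and 6.49 CPM in MG (37 and 33 UMIs), a log2 ratio of 0.05 (−0.67 to 0.77).

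Dlg4 (chr11:70016942-70047522, plus strand) encodes PSD-95, the scaffold protein of excitatory synapses that is also abundant in photoreceptor terminals, and its repressed exon is shown above. The 2 rod levels were 379 CPM (4940 UMIs, Ptbp1-Ctrl) and 376 CPM (5446 UMIs, Ptbp1-KO). Cones had 340.4 and 347 CPM, BC 149.8 and 144 CPM, and AC 147 and 160.2 CPM. No neuronal type differed beyond counting error, and in rods, with most UMIs, the log2 ratio of −0.01 had an interval of −0.07 to 0.04.

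MG had the lowest Dlg4 level, 86.9 CPM (513 UMIs) in the control and 72.8 CPM (370 UMIs) in Ptbp1-KO. The log2 ratio of −0.26 (−0.45 to −0.06) lay within the fold used here, in the direction opposite to that of Gabbr1. RNA released from other cells would give 76.9 and 65.1 CPM of Dlg4 in MG, nearly the whole of the measured level, and that estimate was lower in Ptbp1-KO by a similar amount. With cells thinned to 1000 UMIs the ratio was −0.59, and after the estimate of released RNA was subtracted it was −0.48, both past the fold. The thinned share of MG with a Dlg4 UMI was 8.06% (6.79 to 9.47) in Ptbp1-Ctrl and 5.20% (4.001 to 6.63) in Ptbp1-KO. All 3 MG clusters had ratios below 0, from −0.74 to −0.17. By level, rods and cones (means of 377 and 343 CPM) stood apart from AC and BC (153 and 147 CPM), and these from MG (79.8 CPM).

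Flna (chrX:74223461-74249820, minus strand) encodes filamin A, which crosslinks actin filaments beneath the membrane, and inclusion of its Ptbp1-repressed exon leads to decay. In MG it was at 35.05 CPM (207 UMIs) in the control and 33.03 CPM (168 UMIs) in Ptbp1-KO (log2 ratio −0.09, −0.39 to 0.22). MG was the one type that stood apart by level, with a mean of 34.04 CPM against 7.85 to 9.42 CPM in the 4 neuronal types. The 2 intervals overlapped, and a difference in MG was not detectable at this depth.

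In neurons Flna was low, and the ratio was above 0 in rods, cones and BC, whereas in AC its direction changed with the processing. BC had 61 UMIs (6.23 CPM, 4.77 to 8.004) in the control and 97 (9.47 CPM, 7.68 to 11.6) in Ptbp1-KO. The log2 ratio was 0.60 (0.13 to 1.09), above 0 in 8 of 10 BC clusters. It was 0.97 with thinned cells and 1.10 after subtraction of released RNA, so that its size depended on the processing. Rods had 108 and 153 UMIs, a log2 ratio of 0.35 (−0.02 to 0.72). The rod value was 0.26 under TMM scaling, within the fold. Cones had 8 and 19 UMIs, too few for the count above, with a log2 ratio of 1.54 (0.28 to 2.94), and released RNA would give 6.16 and 6.83 CPM there against the measured 4.58 and 13.3 CPM. In AC 20 and 33 UMIs gave −0.26 (−1.10 to 0.62), and the alternatives ran from −0.60 to 0.36.

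Bak1 (chr17:27019810-27029009, minus strand) encodes a pore-forming protein of the mitochondrial membrane that promotes apoptosis, and the 20-base exon shown above leads its RNA to decay when included. All 9200 bases of the gene lie opposite Ggnbp1 on the other strand. Bak1 was rare everywhere, with 324 UMIs over both libraries and all cells and levels of 3.45 to 6.44 CPM in the 5 types. MG had 31 UMIs in each library, at 5.25 and 6.10 CPM (log2 0.22, −0.55 to 0.98). Rods had 45 and 50 UMIs, at 3.45 CPM in both libraries, and BC 63 and 55 UMIs (log2 −0.26, −0.81 to 0.28). Cones (8 and 9 UMIs) gave 0.46 (−1.08 to 2.04) and AC (8 and 24 UMIs) gave 0.61 (−0.60 to 1.97), both under the minimum of 50 UMIs. No type differed between the libraries beyond counting error, although alternatives ran from −0.93 to −0.22 in BC and from 0.20 to 0.73 in MG. They ran from 0.43 to 2.47 in cones and from 0.60 to 0.90 in AC. No pair of neighbouring types in the order of levels could be told apart. With 31 UMIs against 31, a difference of that size in either direction was not detectable. Bax, which acts together with Bak1, was at 77.4 and 76.5 CPM in MG (log2 −0.02, −0.22 to 0.18).

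Src (chr2:157418444-157471862, plus strand) encodes a non-receptor tyrosine kinase, and the 18-base exon shown above adds residues to its SH3 domain in neurons. MG had 261 UMIs (44.2 CPM) in the control and 241 (47.4 CPM) in Ptbp1-KO (log2 ratio 0.10, −0.16 to 0.36). AC had 52 UMIs (26.6 CPM, 19.9 to 34.9) and 133 UMIs (34.5 CPM, 28.9 to 40.9), a log2 ratio of 0.38 (−0.10 to 0.87) past the fold with an interval that held 0. BC had 89 and 109 UMIs (log2 0.23, −0.19 to 0.65). The intervals of all 3 types held 0. With thinned cells the AC ratio was 1.26 and the MG ratio −0.12, so that the size in AC and the direction in MG depended on the processing.

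In rods Src had 17 UMIs (Ptbp1-Ctrl) and 37 (Ptbp1-KO), which gave 1.30 (0.76 to 2.09) and 2.55 CPM (1.80 to 3.52), and the log2 ratio was 0.97 (0.10 to 1.89). Released RNA would give 0.82 and 1.08 CPM, which lay within the interval of the control and below that of Ptbp1-KO. The ratio was 1.61 after subtraction of this estimate and 0.35 with cells thinned to 1000 UMIs, where the share of rods with a Src UMI was 0.152% and 0.162%. By level MG (45.8 CPM) stood apart from AC (30.5 CPM), and AC from BC (9.87 CPM), in both libraries. BC and cones (3.06 CPM), and cones and rods (1.93 CPM), did not stand apart as neighbours in both. The kinase paralogs Fyn and Yes1 had log2 ratios of 0.18 (−0.02 to 0.37) and 0.02 (−0.21 to 0.24) in MG.

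Tpm1 (chr9:67022590-67049406, minus strand) encodes an alpha-tropomyosin, a coiled-coil protein that lies along actin filaments. Rods had 331 UMIs (25.4 CPM, 22.7 to 28.3) in the control and 476 (32.8 CPM, 29.96 to 35.9) in Ptbp1-KO. The rod log2 ratio was 0.37 (0.17 to 0.58), in a type where the median of all tested genes was 0.07, and it was 0.28 under TMM scaling and 0.30 with the deposited clusters weighted alike in both libraries, both within the fold. By cluster, the rod ratios were 0.37 (0.09 to 0.66) in cluster 0, 0.20 in cluster 1, 0.24 in cluster 2 and −0.01 in cluster 3, so the difference was not seen in every rod cluster.

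The other types showed little difference in Tpm1. MG had 42.2 and 45.8 CPM (249 and 233 UMIs, log2 0.12, −0.14 to 0.38), AC 80.3 and 81.9 CPM, BC 54.04 and 57.04 CPM, and cones 40.1 and 43.5 CPM, with log2 ratios from 0.03 to 0.12. AC had the highest level (81.1 CPM), apart from BC (55.5 CPM), which in turn stood apart from MG (43.99 CPM). Among the other tropomyosins, Tpm4 was lower in MG of Ptbp1-KO, at 19.5 CPM (99 UMIs) against 30.6 CPM (181 UMIs), a log2 ratio of −0.65 (−1.02 to −0.29), and Tpm3 was at 48.8 and 55.4 CPM (log2 0.19, −0.06 to 0.43).

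Actn1 (chr12:80167547-80260371, minus strand) encodes alpha-actinin 1, which bundles actin filaments, and its paired exons shown above lie in the calcium-binding region of the protein. The annotation places Gm47765 on the same strand over 1269 bases of Actn1, so that reads there could not be assigned with certainty. Rods had 49.4 and 46.98 CPM (644 and 681 UMIs, log2 −0.07, −0.23 to 0.09), and BC 41.9 and 40.2 CPM (410 and 412 UMIs, log2 −0.06, −0.26 to 0.14). MG had 16.1 CPM in the control and 17.5 CPM in Ptbp1-KO (95 and 89 UMIs, log2 0.12, −0.31 to 0.55), of which released RNA would give 12.6 and 10.5 CPM. None of these 3 types differed beyond counting error, but the MG ratio was −0.50 with thinned cells and 0.89 after subtraction of released RNA, so that its direction was not settled. In AC the ratio was −0.32 (−0.73 to 0.09), at the edge of the fold. Of 7 alternatives 4 were lower past the fold, and the values ran from −0.48 to 0.01. In cones 42 and 46 UMIs gave 0.42 (−0.21 to 1.06), past the fold. It was 0.29 when CPM was averaged over cells and 1.51 after subtraction of released RNA, and 6 of 7 alternatives were higher past the fold. MG had the lowest mean level of Actn1, 16.8 CPM, and no pair of neighbours in its order of levels (rods, BC, AC, cones, MG) stood apart in both libraries. Actn4, the other non-muscle alpha-actinin, was at 171 and 168 CPM in MG (log2 −0.02, −0.15 to 0.11).

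**Figure D3:**
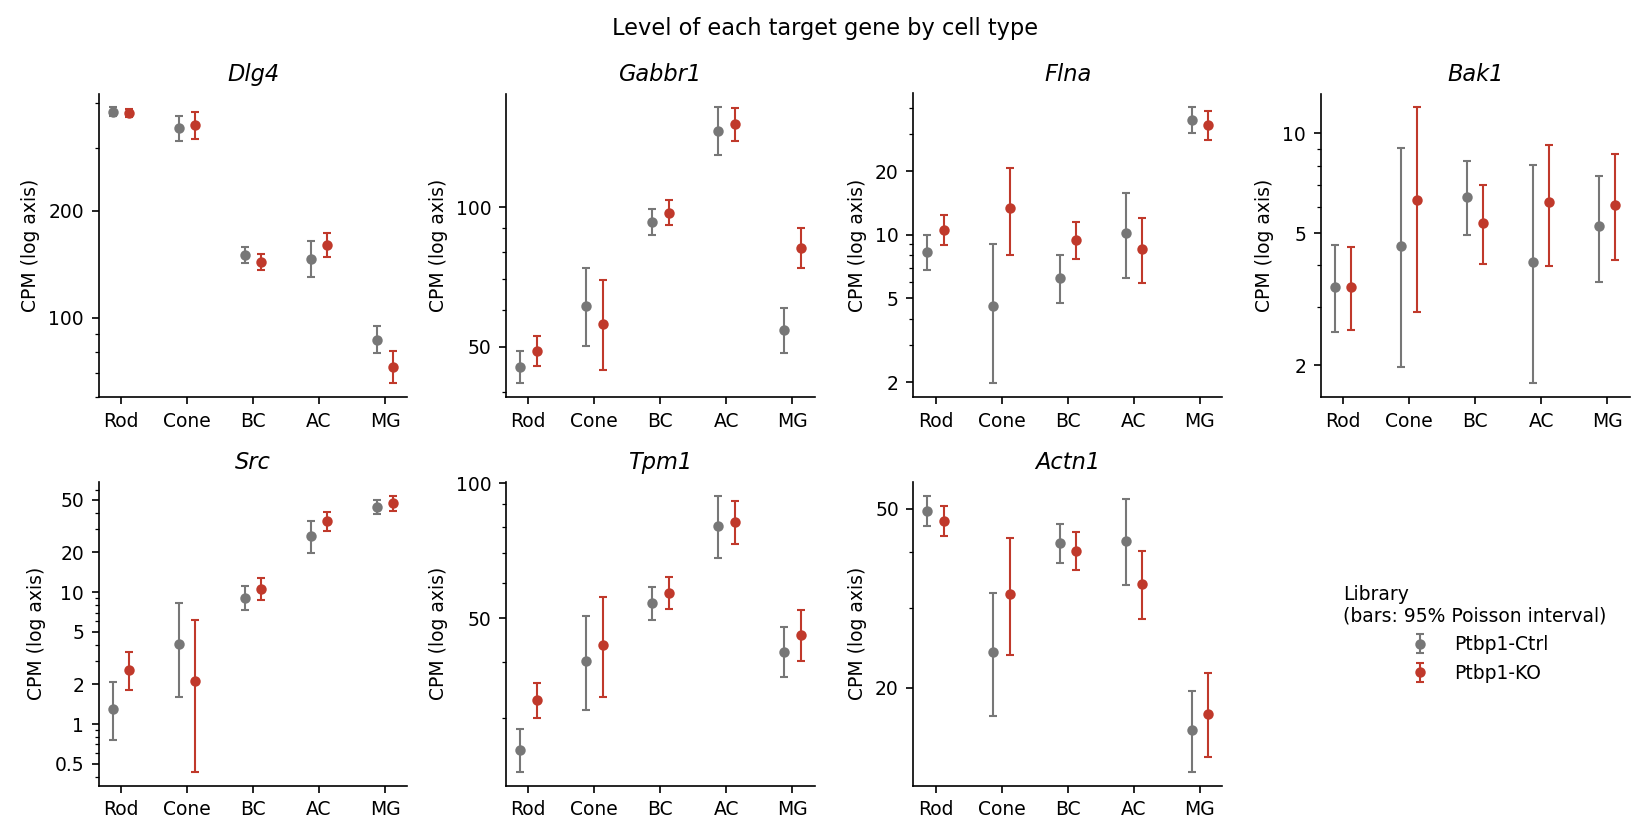
Points give the level of each target gene in CPM on a log axis in 5 cell types, grey for Ptbp1-Ctrl and red for Ptbp1-KO, and bars are 95% Poisson intervals. In MG the 2 intervals of Gabbr1 lie apart (54.4 and 81.8 CPM), while those of Flna, Bak1, Src, Tpm1 and Actn1 overlap.

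**Figure D4:**
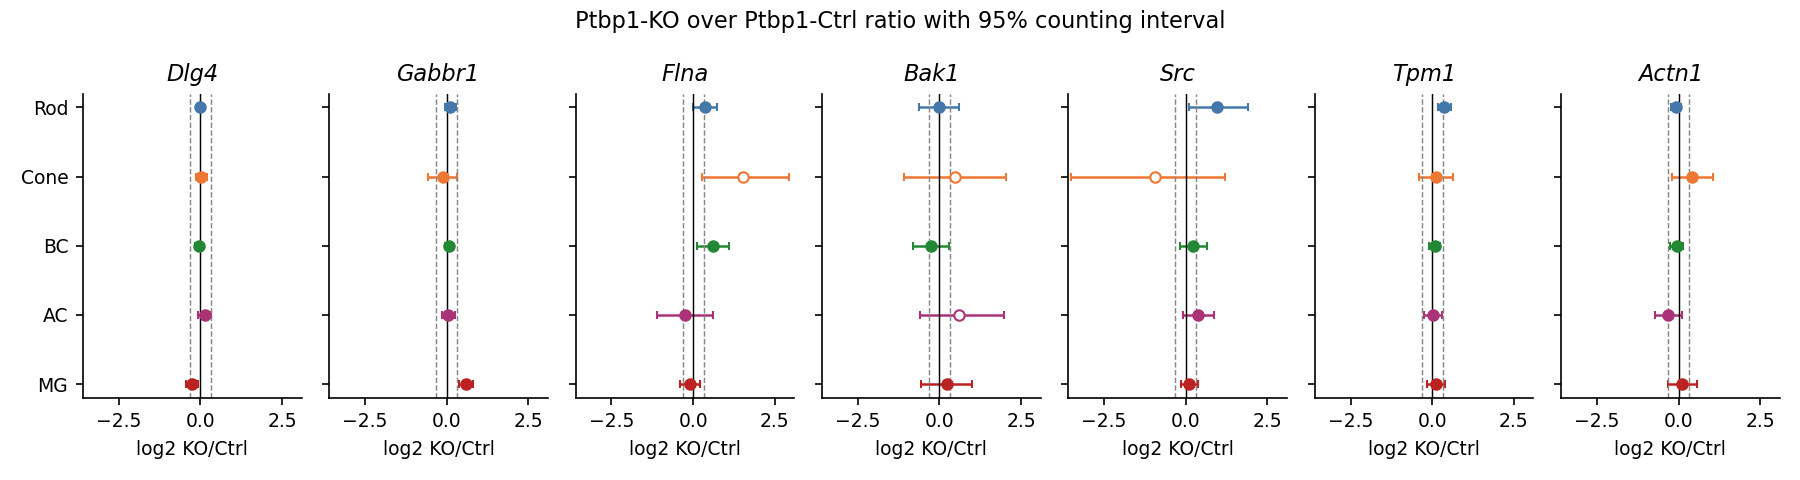
Points give the log2 ratio of Ptbp1-KO over Ptbp1-Ctrl for each target and cell type with its 95% counting interval, open where fewer than 50 UMIs were counted, and dashed lines mark log2 ratios of 0.32 either way. Intervals are narrow for Dlg4 in rods (−0.07 to 0.04) and widest for Src in cones (−3.51 to 1.201), and Gabbr1 in MG lies right of the fold line.

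The 21 deposited clusters showed how the targets varied within a cell type. Actn1 ranged over the 10 BC clusters from 12.3 CPM in cluster 5 to 75.7 CPM in cluster 19, and Gabbr1 from 51.8 CPM in cluster 10 to 181 CPM in cluster 19. Dlg4 ranged from 110.3 to 258 CPM among BC clusters, highest in cluster 21. For these 3 genes the differences between libraries in BC as a whole were smaller, with log2 ratios from −0.06 to 0.07. Dlg4 ratios were above 0 in 3 of the 10 BC clusters, and among these the interval lay above 0 in cluster 21 (log2 0.34, 0.02 to 0.67). In rods, Actn1 of cluster 2 was at 68.1 CPM (222 UMIs) in the control and 48.6 CPM (185 UMIs) in Ptbp1-KO (log2 −0.49, −0.78 to −0.20), whereas the other 3 rod clusters ran from −0.10 to 0.21. Among AC, cluster 6 had the highest Gabbr1 (190.3 CPM) and Tpm1 (105.7 CPM), and this cluster also holds 220 cells named ganglion cells and 24 named horizontal cells beside 771 AC. Gabbr1 in cluster 6 was lower in Ptbp1-KO, at 208 CPM (245 UMIs) in the control and 172 CPM (370 UMIs) in Ptbp1-KO (log2 −0.28, −0.51 to −0.04), within the fold and opposite in direction to MG. In the AC clusters 14 and 15 the Gabbr1 ratio was 0.07 (−0.32 to 0.46) and 0.50 (−0.02 to 1.04). The cluster ratios named here are examples, and not every cluster interval that left out 0 is listed.

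**Figure D5:**
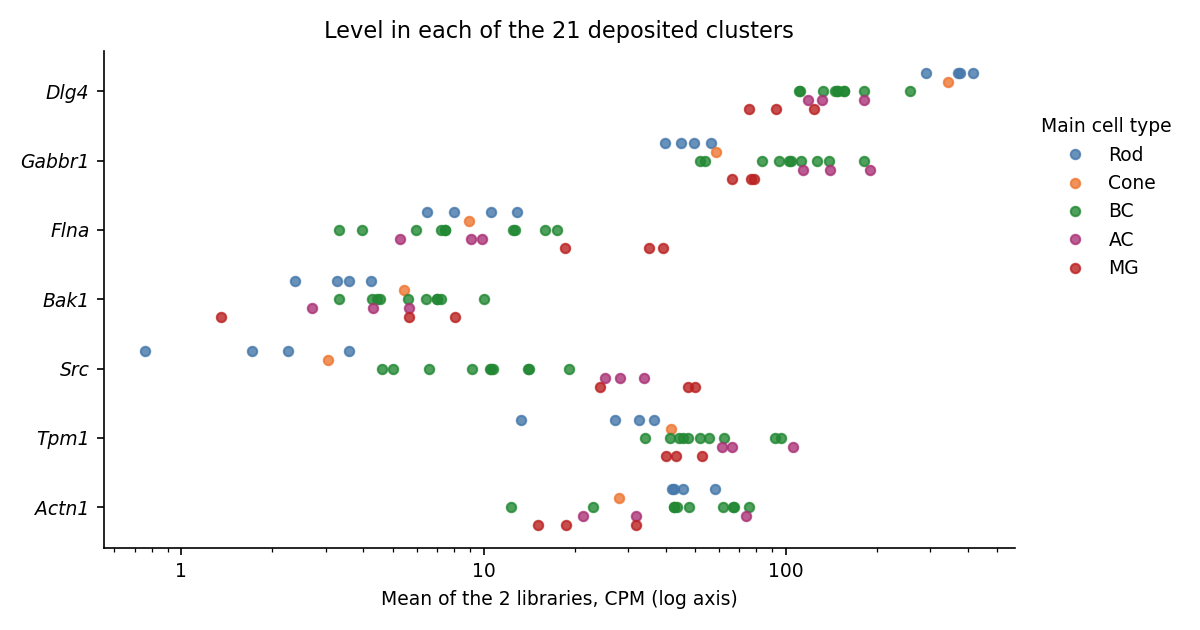
Each point is 1 deposited cluster, placed by the mean CPM of both libraries on a log axis and coloured by its main cell type. Dlg4 points of rods and cones lie to the right (291 to 418 CPM), Flna and Src are highest in MG, and Actn1 spreads from 12.3 to 75.7 CPM among BC.

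Over these 21 clusters, with 8014 genes of at least 20 CPM compared, each target was set beside the genes whose log2(CPM + 10) followed it most closely. For Dlg4 these were Dync1li1 (Pearson r 0.975), Cep126 (0.935) and Cep290 (0.930), and for Src Gm30524 (0.959), Fgf13 (0.9404) and Celsr2 (0.926). For Gabbr1 they were Cux2 (0.952), Vsnl1 (0.922) and Sfxn1 (0.912), for Actn1 A530058N18Rik (0.917), Nectin1 (0.836) and Ago4 (0.816), and for Flna Arvcf (0.892), Gm11266 (0.891) and Tmem164 (0.884). The pattern of Tpm1 was closest to Prkacb (0.843), Ppme1 (0.833) and Gabbr1 itself (0.830). Bak1 had no close match (Itgb1bp1, 0.693). The clusters share libraries, and clusters of 1 cell type share most of their genes, so these values describe the clusters and are no evidence of shared control.

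Other genes of the pathway were read from lists of known Ptbp1 targets. Of 11 further genes with repressed exons, 8 had enough UMIs in MG, where 2 were higher past the fold and 0 lower, with a median log2 ratio of −0.02. Ptbp2, the paralog whose own exon Ptbp1 represses, was at 203 CPM in the control and 308 CPM in Ptbp1-KO (log2 0.60, 0.49 to 0.71), and Cacna1c, a calcium channel subunit, had 22 and 29 UMIs (0.61, −0.24 to 1.48). The ratio of Gabbr1 in MG was thus of the size of that of Ptbp2. Pkm, the pyruvate kinase gene whose exon choice Ptbp1 steers, was lower in rods, at 1005 and 787 CPM (log2 −0.35, −0.39 to −0.32), and within the fold in the other 4 types. In rods 2 of 9 genes of this list were higher and 1 lower past the fold, in cones 2 of 7 were higher and 0 lower, and in BC and AC all 9 with enough UMIs lay within it.

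Vamp2, Sv2a and Kif5a encode synaptic and transport proteins and are known for 3′ terminal introns retained under Ptbp1. Sv2a, a synaptic vesicle protein, had ratios of 0.24 to 0.50 with intervals above 0 in the 4 neuronal types and −0.16 (−0.49 to 0.18) in MG. Kif5a, a neuronal kinesin motor, had 30 and 57 UMIs in rods (log2 0.77, 0.11 to 1.46) and 242 and 309 UMIs in BC (0.29, 0.04 to 0.54), and in MG 52 and 48 UMIs (0.10, −0.50 to 0.69). Vamp2, a vesicle fusion protein, was within the fold in all 5 types, from −0.18 in cones to 0.15 in AC, and the ratio in MG was −0.04 (−0.19 to 0.11).

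Among 13 paralogs and partners of the 7 targets, 11 had enough UMIs in MG, with 0 higher and 1 lower past the fold (Tpm4) and a median log2 ratio of −0.02. In rods 1 of 11 was higher, Dlg2, the PSD-93 paralog of Dlg4, at 1347 and 1991 CPM (log2 0.56, 0.54 to 0.59), while Dlg4 itself differed by −0.01. In BC Tpm4 was past the fold at 0.36 with an interval that held 0. In AC 0 of 11 were past the fold, and in cones 0 of 7 were higher and 3 lower (Bax, Fyn and Tpm3, all with intervals that held 0).

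In ganglion cells (213051 and 183610 UMIs) and horizontal cells (110776 and 42851 UMIs) the targets gave few counts. Gabbr1 had 62 and 45 UMIs in ganglion cells, at 291 and 245 CPM, and 30 and 10 UMIs in horizontal cells, at 271 and 233 CPM. Dlg4 had 40 and 36 UMIs in ganglion cells, at 188 and 196 CPM. Rod markers (4 of 4) summed to 17550 and 21589 CPM in ganglion cells, against 2624 and 1792 CPM for ganglion cell markers (5 of 5). The share of ganglion cell RNA taken as released came to 135% and 180%, more than all of it. The Dlg4 level there cannot be told apart from released RNA. Tpm1 had 23 and 10 UMIs in ganglion cells, of which 10 and 6 lay in a single cell. Bak1 was not counted in either type, and no ratio of the other targets had an interval that left out 0.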

How the data were processed

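Retinal cells of 1 Ptbp1-Ctrl and 1 Ptbp1-KO mouse were profiled with a 10x Genomics 3′ kit. The authors aligned reads to mm10 with Cell Ranger 7.0.1, filtered cells and named cell types with Seurat 4, and deposited raw UMI counts per gene and cell with a table of cell types and clusters. The deposited percent of mitochondrial UMIs was used as a description of the libraries, and 2 per-cell columns were not used. How doublets were treated is not given in the sources used here, and no caller was run.

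Counts were summed by library and deposited cell type and divided by the summed UMIs (CPM). With 1 library per genotype no test was made, and the Wilcoxon test over cells was not repeated because cells are not replicates. Intervals are at 95%: exact Poisson for CPM, exact conditional binomial for ratios and Clopper-Pearson for shares, and cover counting error only. Summed depth ran from 1425527 to 14494233 UMIs in the 5 types compared. Genes named were the 7 members, Ptbp1, genes of 3 lists (other repressed exons, retained terminal introns, paralogs and partners), marker genes, and for each member the 3 genes with the highest Pearson r over clusters. The members and lists were chosen with earlier results of these data known. Alternatives were TMM scaling (edgeR 4.0.16), cells thinned to 1000 UMIs, subtraction of released RNA, leaving out the deepest cells, a mean over cells, equal cluster mix, and other folds and UMI minimums. The interval code was tested on simulated data. Python 3.11.15, numpy 2.4.6, scipy 1.17.1, pandas 2.3.3 and R 4.3.3 were used. Some genes of the lists are not reported here.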

Additional observations from a re-analysis of the deposited data

How the results depend on the processing

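No paired analysis was possible because each genotype has 1 library. The count of targets past the fold used moved with the processing in all 5 types, and the cause was not tested. Counts here take both directions together, and the share of all genes past the fold is given for the main setting only. In rods the count was 3, 2 with equal cluster mix, and 1 with TMM scaling or a fold of 1.5. In cones it was 1, 2 after subtraction of released RNA, 0 with a mean over cells or a fold of 1.5, and 4 with at least 1 UMI. In BC it was 1, 3 with thinned cells, and 2 after subtraction, without the deepest cells or with a mean over cells. In AC it was 1, 3 after subtraction (Src higher, Flna and Actn1 lower), and 0 with a fold of 1.5. The AC count was 2 with thinned cells, without the deepest cells, with a mean over cells, with equal cluster mix or with at least 1 UMI. In MG it was 1, 4 with thinned cells (Gabbr1 and Bak1 higher, Dlg4 and Actn1 lower), 3 after subtraction and 2 without the deepest cells. Of 241 alternative values of single ratios, 227 moved by less than the counting interval, 14 moved further, and 0 of the ratios past the fold changed sign. Ratios resting on few UMIs (Bak1, and Src in rods and cones) are limited by depth, and without replicates no value separates genotype from mouse or library.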
